A study of Mus musculus with 10 samples.

Results

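Neuroendocrine-high prostates were 2 of the 10 prostates of this series of TRAMP mice, those of nicotine mice 1 and 3. They were chosen by their own expression values: a prostate belonged to the group when both Chga (chromogranin A) and Syp (synaptophysin) read above 9 on the deposited log2 scale. The other 8 prostates were those of water mice 1 to 5 and nicotine mice 2, 4 and 5. The 10 male mice all carried the TRAMP transgene, in which a probasin promoter drives viral T antigens in the prostate epithelium. Treatment began when the mice were 8 to 9 weeks old: 5 were kept on tap water, and 5 had nicotine added to it at 250 µg/ml, as the tartrate. RNA of 1 prostate per mouse was measured on 1 Affymetrix whole-transcript array, and the labels name no lobe and no age at collection. Because the same values that were compared had chosen the 2 prostates, every difference between them and the other 8 is given as a description, with no test. Both prostates were from the nicotine group, so 2 of 5 nicotine and 0 of 5 water mice met the rule.

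Neuroendocrine cells are scattered secretory cells of the prostate epithelium that store peptides in dense-core granules and carry much of the synaptic machinery of neurons. Neuroendocrine prostate carcinoma shares these genes, divides quickly and usually makes little of the androgen-regulated secretory proteins of luminal cells. In TRAMP mice, in which T antigens bind the RB and p53 proteins, such tumours are a known form of late disease. Transcription factors such as Insm1 switch the programme on in many neuroendocrine tissues, while the repressor Rest keeps neuronal genes silent in other cells. Trp53, Pcsk2, Calca and Isg15 are not analysed here.

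The start regions of genes that stood apart are shown first, since the later results refer to them. Each runs from 250 bases before to 50 bases after a RefSeq transcription start in GRCm38.p6, printed 5′ to 3′ on the strand of the gene. In the first set, from 3 granule and synaptic genes that were high in both prostates, capitals mark the E-box CAGCTG, the core that neural basic helix-loop-helix factors bind. This motif reads the same on both strands. Chga and Syt1 hold it and Syp does not. For a gene with several starts, the region with the most matches was printed. Syt1 had 2 starts to choose from, and Chga and Syp had 1 each, so these 3 regions are not an even comparison.
Chga (chr12:102554691-102554990, plus strand): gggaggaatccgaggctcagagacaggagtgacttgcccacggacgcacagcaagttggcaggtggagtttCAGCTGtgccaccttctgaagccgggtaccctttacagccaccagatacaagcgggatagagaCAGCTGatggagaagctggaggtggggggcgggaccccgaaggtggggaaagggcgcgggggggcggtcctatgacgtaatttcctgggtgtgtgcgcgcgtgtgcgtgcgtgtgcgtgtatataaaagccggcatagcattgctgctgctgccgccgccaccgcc
Syp (chrX:7638330-7638629, plus strand): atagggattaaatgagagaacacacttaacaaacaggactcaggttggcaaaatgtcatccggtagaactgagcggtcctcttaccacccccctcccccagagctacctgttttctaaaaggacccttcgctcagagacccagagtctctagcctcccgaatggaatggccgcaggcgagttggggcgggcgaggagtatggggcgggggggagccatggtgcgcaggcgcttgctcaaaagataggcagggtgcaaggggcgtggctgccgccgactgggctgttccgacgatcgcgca
Syt1 (chr10:109009062-109009361, minus strand): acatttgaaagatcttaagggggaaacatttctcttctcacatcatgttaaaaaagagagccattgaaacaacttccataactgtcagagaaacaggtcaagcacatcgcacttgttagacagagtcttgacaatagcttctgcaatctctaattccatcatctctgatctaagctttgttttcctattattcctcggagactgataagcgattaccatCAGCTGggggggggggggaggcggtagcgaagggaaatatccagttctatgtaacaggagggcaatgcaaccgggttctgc
In the second set, from 3 interferon-induced genes that were low in both prostates, capitals mark the core of the interferon-stimulated response element, searched as GAAA, any 2 bases and GAAA on either strand. It was chosen after the values were seen. In Irgm1 a pair of matches overlap.
Ifit3 (chr19:34583279-34583578, plus strand): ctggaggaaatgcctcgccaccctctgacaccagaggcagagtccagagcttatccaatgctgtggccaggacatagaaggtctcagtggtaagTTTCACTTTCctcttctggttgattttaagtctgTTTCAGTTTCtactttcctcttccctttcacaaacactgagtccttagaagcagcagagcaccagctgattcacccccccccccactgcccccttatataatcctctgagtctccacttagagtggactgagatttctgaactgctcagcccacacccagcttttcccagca
Ifit1 (chr19:34640639-34640938, plus strand): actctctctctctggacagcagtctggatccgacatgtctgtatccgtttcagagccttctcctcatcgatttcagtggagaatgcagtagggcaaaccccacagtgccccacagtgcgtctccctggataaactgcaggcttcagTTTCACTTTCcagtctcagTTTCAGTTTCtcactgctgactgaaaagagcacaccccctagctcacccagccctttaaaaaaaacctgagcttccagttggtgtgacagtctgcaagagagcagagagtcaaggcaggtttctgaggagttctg
Irgm1 (chr11:48871371-48871670, minus strand): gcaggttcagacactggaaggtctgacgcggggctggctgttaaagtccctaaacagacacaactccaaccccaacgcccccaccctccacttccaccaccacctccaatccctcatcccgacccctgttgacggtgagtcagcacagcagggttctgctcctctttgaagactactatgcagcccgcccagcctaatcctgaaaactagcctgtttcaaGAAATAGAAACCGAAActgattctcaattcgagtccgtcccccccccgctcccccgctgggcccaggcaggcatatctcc
A start region was at hand for 15614 of 19938 genes. A gene was counted when any of its start regions held the motif, so genes with several starts had more chances. The E-box stood in 22.6% of the 319 such genes among those called higher (defined below), in 18.6% of 215 called lower and in 18.4% of all. The interferon element stood in 13.0% of the genes called lower, in 4.08% of those called higher and in 3.89% of all. The site of Rest, searched as CAGCACC and GGACAG with 2 bases between them on either strand, stood in 1 of the genes called higher, Ogdhl, and in 9 of all. A match is a run of letters and not evidence of binding.

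All arrays had medians between 7.50 and 7.57. Pearson correlations over the 19938 genes lay between 0.990 and 0.996 among the other 8 prostates, whereas nicotine mouse 1 had a median correlation with them of 0.946 and nicotine mouse 3 of 0.837. Between nicotine mice 1 and 3 it was 0.901. The labels name no scan date or slide, so batches were not analysed. Seminal vesicle secretory genes varied widely even among the other 8 prostates, with list means from 7.21 to 13.15.

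The 5 marker genes given for these prostates separated them by wide gaps. In the following sentences the values of nicotine mouse 1 and nicotine mouse 3 come first, and those of the other 8 prostates are given as lowest, median and highest. Chga, a granule matrix protein, read 11.74 and 11.31 against 7.07, 7.31 and 7.73. Syp, a synaptic vesicle membrane protein, read 9.39 and 10.30 against 7.09, 7.35 and 7.52. On both genes the prostates were far apart: the member just inside the rule was nicotine mouse 1 by its Syp of 9.39, and the prostate just outside was water mouse 2, which was the highest of the other 8 for both genes. Insm1, a zinc-finger factor of endocrine precursors, read 10.14 and 10.49 against a median of 7.21 and a highest value of 7.68. Scg3, which sorts granins into granules, read 9.57 and 10.94 against 5.52, 5.85 and 6.43. Syt1, the calcium sensor of vesicle release, read 11.89 and 12.71 against 6.65, 7.57 and 8.23. The groups overlapped for none of these 5 genes, and water mouse 2 was again the highest of the other 8 for each. The means of the 2 prostates lay above the means of the other 8 by 18.0-fold for Chga, 5.75-fold for Syp, 8.39-fold for Insm1, 20.5-fold for Scg3 and 27.6-fold for Syt1. Each of the 5 genes was measured by 1 probe set.

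**Figure D1:**
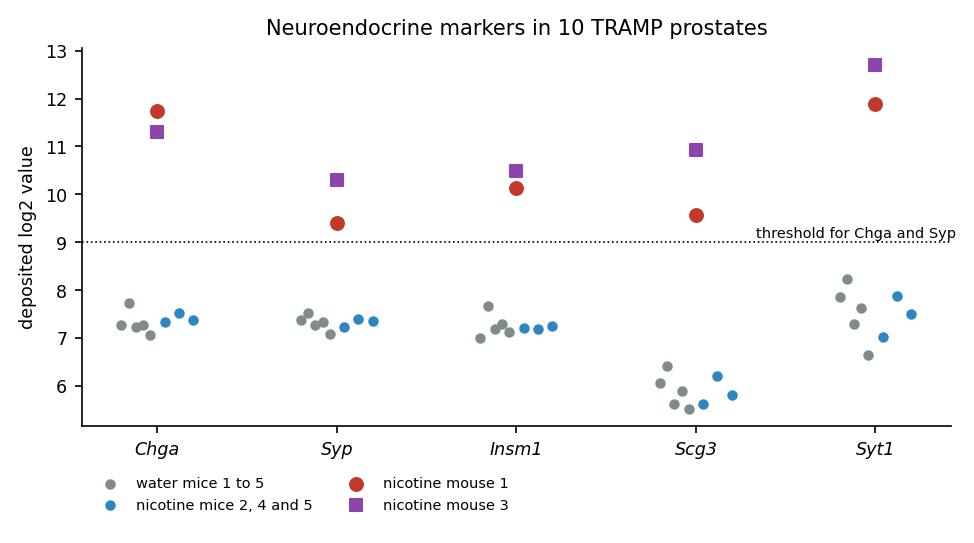
Deposited log2 values of the 5 neuroendocrine markers, 1 point per mouse; the dotted line is the threshold of 9 that Chga and Syp had to pass. Nicotine mice 1 and 3 sit above all 8 others for each gene, with Syp in nicotine mouse 1 (9.39) closest to the line.

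A gene was called higher when both prostates lay at least 1 log2 unit above the highest of the other 8, and called lower when both lay at least 1 unit below the lowest. By this rule 409 of 19938 genes (2.05%) were called higher and 281 (1.41%) lower. With any gap in place of 1 unit, 3489 genes (17.5%) lay above and 4214 (21.1%) below the other 8 in both prostates. The median difference was 2.05 log2 units (4.14-fold) for genes called higher and -2.23 (4.70-fold) for those called lower, beside -0.01 over all genes. In whole-tissue RNA, fewer cells of a type and less RNA per cell cannot be told apart. The members of each gene list below are read beside these shares, which come from the contrast that the choice of prostates defined.

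The 2 prostates differed in how far they stood from the others. Taken alone, nicotine mouse 1 had 685 genes at least 1 unit above and 309 below the other 8, and nicotine mouse 3 had 1482 above and 1716 below. Nicotine mouse 3 was the more extreme of the pair for 305 of the 409 genes called higher and 271 of the 281 called lower. The median of the genes called lower was -1.50 in nicotine mouse 1 and -2.92 in nicotine mouse 3. Among the genes called higher the median was 1.72 in nicotine mouse 1 and 2.36 in nicotine mouse 3. Both sets of differences are taken against the same 8 prostates.

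**Figure D2:**
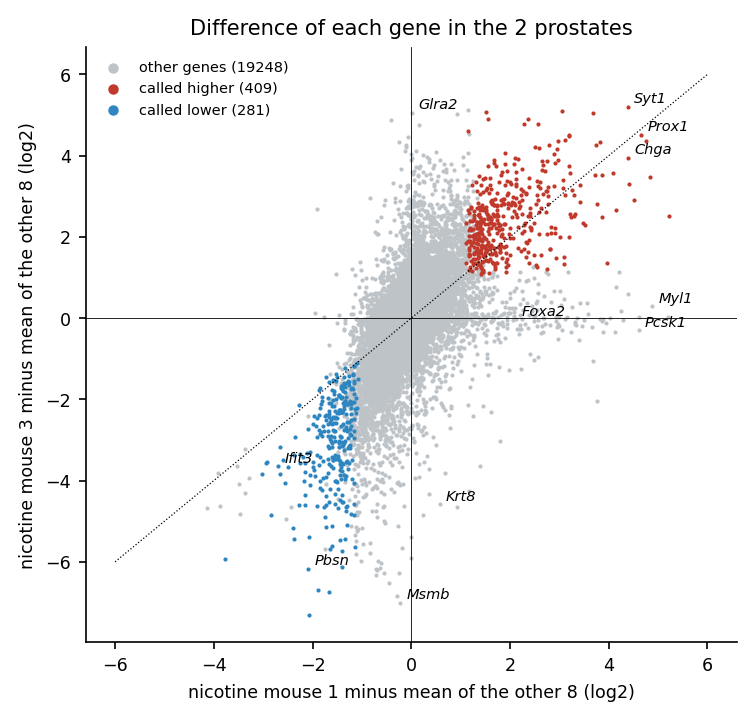
Difference of each of 19938 genes from the mean of the other 8 prostates, in log2 units, in nicotine mouse 1 (horizontal) and nicotine mouse 3 (vertical); red points are the 409 genes called higher, blue points the 281 called lower, and the dotted line marks equal differences. Most blue points lie below the dotted line, and arms along both axes hold genes that differed in 1 prostate only, such as Myl1 and Pcsk1.

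Of the neuroendocrine transcription factors, 7 of 26 measured were called higher and 0 lower, with a median difference of 1.25. Prox1, a homeobox factor of neural and endocrine precursors, had the largest gap in the ranking over all genes: it read 10.78 and 10.64 against 5.92, 6.09 and 6.58. Both prostates lay more than 4 units above the highest of the others, at a mean of 24.0-fold. Here and below, that ranking leaves out predicted and clone names, small RNAs, and olfactory and vomeronasal receptors. St18 read 8.84 and 8.73 against 5.99, 6.10 and 6.36, and its relative Myt1 read 8.77 and 9.83 against 6.20, 6.38 and 6.57. Both are zinc-finger factors of neuronal and islet differentiation, and neither overlapped the other prostates. Sox1, an early neural factor, read 10.70 and 10.73 against 8.19, 8.42 and 8.61. Sox11, a factor of immature neurons, read 8.76 and 10.98 against 5.90, 6.14 and 6.68. For Sox1 the 2 prostates were alike, whereas Sox11 was much higher in nicotine mouse 3. Outside the list, Pax9, a paired-box factor of foregut derivatives, read 11.32 and 11.84 against 7.36, 7.53 and 7.90. Slc25a21, a mitochondrial carrier and the gene next to Pax9 in RefSeq, read 9.53 and 10.05 against 5.47, 5.70 and 6.10. The genes on the other side of Pax9 did not follow: Nkx2-9 read 7.30 and 7.13 and Nkx2-1, a factor of lung and thyroid, 6.96 and 7.08, each within the range of the other 8.

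Genes of granules and peptide processing were split. Of 20 measured, 4 were called higher and 0 lower, and the median difference was 0.24. Besides Chga and Scg3, the called genes were Chgb (chromogranin B), which read 8.43 and 10.30 against 6.55, 7.06 and 7.27, and Cpe, the carboxypeptidase that trims prohormones, which read 9.79 and 11.04 against 8.07, 8.30 and 8.71. Both were higher in nicotine mouse 3 than in nicotine mouse 1, and for both the groups were apart. Scg5, the chaperone of a prohormone convertase, read 7.93 and 9.29 against 6.93, 7.16 and 7.44, above the others in both but by less than 1 unit in nicotine mouse 1. Vgf, a granin-like precursor, read 7.41 and 7.51 against 6.95, 7.14 and 7.28.

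The synaptic vesicle list held 10 of 21 measured genes called higher and 0 lower, with a median difference of 2.04. Syn2, a synapsin that tethers vesicles, read 10.86 and 10.59 against 7.21, 7.57 and 7.86, and Syn1 read 9.39 and 10.35 against 6.97, 7.22 and 7.29. Rab3c, a vesicle GTPase, read 8.88 and 9.63 against 5.91, 6.33 and 6.57. The groups were apart for all 3, by a mean of 8.98-fold for Syn2, 6.49-fold for Syn1 and 7.95-fold for Rab3c. Unc13a, which primes vesicles, read 9.42 and 9.73 against 7.03, 7.18 and 7.29, and Sv2a, a vesicle glycoprotein, read 9.47 and 10.96 against 7.14, 7.36 and 7.52. Kif1a, the motor that carries vesicle precursors along axons, read 10.48 and 11.02 against 6.96, 7.25 and 7.59. Apba2, a presynaptic adaptor, read 10.11 and 9.92 against 6.21, 6.37 and 6.57. In these 4 genes too both prostates lay well above the highest of the others, with nicotine mouse 3 ahead in all but Apba2.

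Neuronal RNA-binding and splicing factors were called higher in 7 of 13 cases and lower in 0, with a median difference of 2.09. Srrm4, the activator of neuronal microexons, which counteracts Rest through splicing, read 7.76 and 8.49 against 6.14, 6.39 and 6.55. Elavl4, a neuronal stabiliser of transcripts, read 9.03 and 11.08 against 5.71, 5.86 and 6.70, at a mean of 16.9-fold. Elavl3 of the same family read 9.62 and 11.03 against 7.11, 7.39 and 7.79. Celf4 read 9.20 and 10.90 against 7.19, 7.36 and 7.63, while its relative Celf3 had the higher value in nicotine mouse 1, 9.52 and 9.08 against 6.99, 7.18 and 7.41. No value of these 5 genes in the 2 prostates reached down to the other 8.

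Several of the 20 genes with the largest gaps in the higher direction over all genes were on none of the gene lists. Necab1, a neuronal calcium-binding protein, read 11.95 and 11.57 against 6.42, 7.23 and 7.75. Fgf14, which binds sodium channels at the axon's start, read 10.94 and 9.85 against 6.40, 6.50 and 6.97. Stxbp5l, which restrains vesicle fusion, read 8.31 and 8.44 against 5.10, 5.23 and 5.32. Each of the 3 was high in both prostates, and among the other 8 water mouse 2 had the top value. Cdh20, a cadherin, read 10.61 and 10.28 against 6.42, 6.72 and 7.38, Slc7a14, a transporter of neurons, read 10.26 and 10.16 against 6.63 to 7.25, and Sema3e, a guidance cue for axons and vessels, read 9.45 and 9.39 against 6.23, 6.32 and 6.55. In these 3 genes the 2 prostates were close to each other and far from the rest.

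The neuronal cytoskeleton and adhesion list showed 9 of 19 genes called higher and 0 lower, with a median difference of 1.89. Taken alone, nicotine mouse 3 had 18 of the 19 at least 1 unit above the others and nicotine mouse 1 had 10. Ina (internexin, a neuronal intermediate filament) read 10.11 and 11.39 against 6.70, 7.01 and 7.17. Dpysl5 and Crmp1, which act in growth cones, read 10.02 and 10.91 (Dpysl5) and 9.40 and 10.53 (Crmp1), against highest values elsewhere of 7.55 and 6.89. Stmn3, a microtubule regulator, read 10.45 and 12.20 against 7.46, 8.37 and 8.85. Uchl1, a ubiquitin hydrolase of neurons and endocrine cells, read 10.58 and 10.96 against 7.03, 7.93 and 8.48. All of these were highest in nicotine mouse 3 and overlapped in no prostate with the other 8. Fscn1, which bundles actin in motile cells, read 11.36 and 11.71 against 7.89, 8.16 and 8.50. Of the clustered protocadherins, adhesion proteins of neurons taken up after the values were seen, 12 of 22 beta genes were called higher and 21 of 22 lay above the other 8 by some gap. Pcdhb17 read 6.82 and 7.86 against 4.96, 5.08 and 5.22. These genes are near-copies of each other and may share probe signal, so the 22 are not separate observations, and 5 of 22 passed a filter on low mean values. Here and below, that mean is taken over all 10 prostates, so high values in the 2 alone can carry a gene past it.

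Voltage-gated channels were called higher in 8 of 15 measured genes and lower in 0, with a median difference of 1.85, and 9 of the 15 passed the filter on low mean values. The pore of the P/Q-type calcium channel, Cacna1a, read 10.39 and 9.59 against 7.38, 7.45 and 7.64, and that of the N-type channel, Cacna1b, read 9.04 and 9.79 against 6.60, 6.68 and 6.96. Cacna1d of the L-type read 9.86 and 9.35 against 7.16, 7.27 and 7.38. The auxiliary subunit Cacna2d3, from the ranking over all genes, read 10.03 and 9.51 against 5.86, 5.95 and 6.03, at a mean of 14.2-fold. These 4 calcium channel genes were high in both prostates, whereas Cacna1e and Cacna2d2 did not lie above the other 8 in both. The sodium channel Scn3a, also called higher, read 7.62 and 10.13 against 5.19, 5.36 and 5.48, and Scn8a, another sodium channel, had the widest gap of the list at 2.21 units.

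Nicotinic receptor subunits are the direct targets of the drug that the mice drank, and 1 of 16 measured was called higher. Chrnb2, the beta subunit of the main neuronal receptor, read 9.45 and 10.33 against 7.34, 7.50 and 7.62, at a mean of 5.29-fold. Both prostates were far above water mice and the other nicotine mice alike. Chrna5, an accessory subunit, read 6.20 and 7.32 against 5.17, 5.36 and 5.46, so that nicotine mouse 1 lay less than 1 unit above. Chrnd, a subunit of the muscle receptor, read 8.16 and 6.35 against 5.96, 6.10 and 6.25, high in nicotine mouse 1, whose skeletal muscle genes were also high (given below). The median difference of the 16 subunits was 0.12, and 8 of the 16 passed the filter on low mean values.

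Surface proteins studied as targets in prostate cancer went in both directions: of 16 measured, 3 were called higher and 2 lower. Kit, the stem cell factor receptor, read 10.81 and 11.41 against 7.95, 8.25 and 8.39. Ncam1, the neural adhesion molecule CD56, read 10.84 and 11.68 against 8.85, 9.19 and 9.30. Ret, a receptor tyrosine kinase, read 11.40 and 8.79 against 7.14, 7.48 and 7.67, with the far higher value in nicotine mouse 1. Psca (prostate stem cell antigen) read 8.20 and 6.88 against 9.94, 10.47 and 10.85, and Steap2, a metalloreductase, read 7.54 and 7.52 against 8.81, 9.07 and 9.41. Kit and Ncam1 were thus high and Psca and Steap2 low in both prostates, with no overlap. The Notch ligand Dll3, a target in small cell cancers, read 7.42 and 6.78 against 6.29, 6.45 and 6.58, above the others by less than 1 unit.

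In the Notch pathway 2 of 17 genes were called higher and 0 lower, and the median difference was 0.31. Hey1, a repressor that Notch signals induce, read 9.08 and 9.29 against 7.17, 7.25 and 7.38, and the ligand Jag2 read 9.65 and 9.07 against 7.24, 7.31 and 7.55. Hes1, another induced repressor, lay the other way, at 8.78 and 7.40 against 9.10, 9.35 and 9.52. The receptor Notch2 read 9.19 and 7.09 against 9.58, 9.81 and 10.15. Hey1 and Hes1 were therefore on opposite sides of the other 8 in both prostates. Dner, a neuronal membrane protein with Delta-like repeats, read 11.26 and 11.12 against 7.67, 7.87 and 7.96, at a mean of 10.2-fold.

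Rest itself read 8.44 and 6.98 against 9.28, 9.46 and 9.70, below all others in both prostates but by less than 1 unit in nicotine mouse 1. Its co-repressor Rcor2, which is abundant in neural precursors, was called higher at 8.49 and 9.14 against 6.97, 7.05 and 7.13. The Hippo effector Yap1, which is absent from many neuroendocrine tumours, read 9.92 and 7.65 against 10.35, 10.52 and 10.75. Rest and Yap1 shared this order, lowest in nicotine mouse 3 and next lowest in nicotine mouse 1. Of the 14 measured genes of the REST and Hippo list, 1 was called higher and 0 lower.

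Cell division genes were high in both prostates. Of 21 mitosis genes, 5 were called higher, 0 lower and 19 lay above the other 8 by some gap, with a median difference of 1.52. Foxm1, which drives mitotic genes, read 9.97 and 11.07 against 7.82, 8.14 and 8.58. Top2a, which untangles replicated DNA, read 11.14 and 11.90 against 9.06, 9.39 and 9.71. Plk1, a mitotic kinase, read 10.96 and 11.46 against 8.67, 9.12 and 9.57. These 3 genes did not overlap between the groups and were highest in nicotine mouse 3. Taken alone, nicotine mouse 3 had 20 of the 21 at least 1 unit above the others and nicotine mouse 1 had 5. In the replication list 2 of 21 were called higher, among them Rrm2, which makes deoxynucleotides, at 10.34 and 11.69 against 8.63, 8.90 and 9.09. E2f8, an atypical E2F repressor, and E2f2, an E2F activator that RB holds in check, read 9.87 and 10.27 (E2f8) and 9.38 and 9.63 (E2f2), against highest values elsewhere of 8.49 and 8.06. Rb1 itself read 10.12 and 10.72 against 9.71, 9.79 and 9.93, and Ezh2, the Polycomb methyltransferase, read 10.99 and 11.61 against 10.37, 10.58 and 10.67, each above the others by less than 1 unit. Of 12 Polycomb and DNA methylation genes, 0 were called and 7 lay above by some gap. Among clustered histones, taken up after the values were seen, 6 of 27 were called higher and 0 lower. The linker histone H1f1 read 11.53 and 12.58 against 9.62, 9.93 and 10.46. Histone genes share sequence, so their probe sets may share signal.

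In the glycolysis and hypoxia list 2 of 20 genes were called higher and 0 lower. Pfkp, a phosphofructokinase, read 9.70 and 10.60 against 7.81, 8.03 and 8.21. Slc16a3, a lactate exporter, read 9.13 and 9.34 against 7.63, 7.79 and 7.91. The median difference of the list was 0.44.

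Luminal secretory genes were mostly low in both prostates, and by very different amounts. Of 23 luminal and androgen-regulated genes, 5 were called lower and 0 higher. By some gap, 16 lay below the other 8 and 1 above. Taken alone, nicotine mouse 1 had 5 at least 1 unit below and 2 at least 1 unit above, and nicotine mouse 3 had 17 and 0. Msmb of this list, given below, lay inside the range of the others in nicotine mouse 1. The median difference of the 23 was -0.72 in nicotine mouse 1 and -3.70 in nicotine mouse 3. Pbsn (probasin, a secreted androgen-regulated protein whose promoter also drives the transgene) read 9.17 and 5.08 against 10.86, 11.07 and 12.20. Tgm4, the transglutaminase that clots semen, read 10.62 and 6.58 against 11.79, 12.07 and 13.17. Azgp1, a secreted glycoprotein, read 9.51 and 6.19 against 10.63, 10.81 and 11.17. Tmprss2, an androgen-regulated surface protease, read 9.30 and 6.54 against 10.35, 10.44 and 10.91. In these 4 genes nicotine mouse 3 was lowest and nicotine mouse 1 stood between it and the others. Lineage factors lay closer to the others: Hoxb13, a homeobox factor of the prostate, read 9.98 and 10.23 against 10.80, 10.97 and 11.23, and Foxa1, a forkhead factor of luminal cells, read 11.53 and 11.26 against 11.68, 11.81 and 11.96. Both lay below the other 8 in both prostates by less than 1 unit.

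Among the 20 genes with the largest gaps in the lower direction over all genes, Klk1b24, a kallikrein protease, read 6.66 and 5.85 against 9.22, 9.73 and 9.99, although kallikrein genes of this family are near-copies and may share probe signal. Vsig1, an epithelial junction protein, read 6.40 and 5.77 against 8.82, 9.39 and 9.63. Ly96, the co-receptor through which Tlr4 senses endotoxin, read 5.48 and 4.87 against 7.77, 8.45 and 9.01. In all 3 both prostates lay more than 2 units below the lowest of the others. Serpinb5 (maspin, an epithelial serpin) read 7.91 and 5.57 against 9.96, 10.16 and 10.39, and Mgst1, a microsomal glutathione transferase, read 9.27 and 6.57 against 11.10, 11.18 and 11.29. Both genes were lowest in nicotine mouse 3 and also below the other 8 in nicotine mouse 1. Car13, a carbonic anhydrase, read 8.06 and 6.87 against 10.33, 10.73 and 10.92, and Slco4c1, an organic anion carrier, read 7.95 and 4.89 against 9.93, 10.32 and 10.62. Frk, an epithelial tyrosine kinase, read 8.08 and 6.54 against 9.95, 10.07 and 10.26, and Adhfe1, a mitochondrial dehydrogenase, read 8.32 and 6.91 against 10.15, 10.48 and 10.68. Pate9 and Pate14, small secreted proteins of prostate and testis, read 10.37 and 5.12 (Pate9) against 12.34, 12.40 and 12.64, and 7.27 and 5.11 (Pate14) against 9.63, 10.83 and 12.87. None of these 6 genes overlapped between the groups, and the mean of the other 8 was above that of the pair by 6.79-fold (Frk) to 28.9-fold (Pate14). Pate14 also varied with the seminal vesicle list among the other 8, at 9.63 to 10.25 in the 4 with a seminal vesicle mean under 10 units and 11.41 to 12.87 in the other 4; against the first 4 alone its fold was 13.1. As families, taken up after the values were seen, 6 of 23 glutathione transferase genes and 4 of 24 clade B serpins were called lower and 0 of either higher. Only 7 of the 24 serpins passed the filter on low mean values.

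Interferon-stimulated genes were low in both prostates: 7 of 17 were called lower, 0 higher and 16 lay below the other 8 by some gap, with a median difference of -1.86. Irf7, the factor that amplifies the response, read 8.27 and 7.06 against 9.82, 10.37 and 11.04. Ifit3, an antiviral protein that was among the 20 largest gaps, read 8.01 and 7.05 against 10.07, 10.59 and 11.93. Ifit1 read 7.83 and 6.07 against 9.43, 9.76 and 10.62, and shares sequence with other Ifit genes. Nicotine mouse 3 was lowest and nicotine mouse 1 next lowest in each. Usp18, which dampens the receptor, read 8.62 and 6.94 against 10.25, 10.51 and 11.46, Oasl2 read 9.31 and 7.15 against 10.68, 11.09 and 11.68, and Irgm1, an interferon-induced GTPase, read 8.01 and 7.17 against 9.14, 9.44 and 9.95. Rtp4, another interferon-induced gene, read 8.01 and 6.16 against 9.80, 10.13 and 10.72. All 4 measured Trim30 and Trim12 genes, interferon-induced near-copies taken up after the values were seen, were called lower, for example Trim30a at 7.93 and 7.08 against 9.30, 9.51 and 10.15. For antigen presentation on MHC class I, 0 of 9 genes were called, while 8 lay below the others by some gap, among them the peptide transporter Tap1 at 8.53 and 7.32 against 9.42, 9.66 and 10.03. The class II genes H2-Aa, at 9.25 and 6.61 against 10.64, 10.89 and 11.50, and H2-Ab1, at 9.04 and 7.29 against 10.07, 10.34 and 11.00, were the 2 of 18 macrophage and class II genes called lower.

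**Figure D3:**
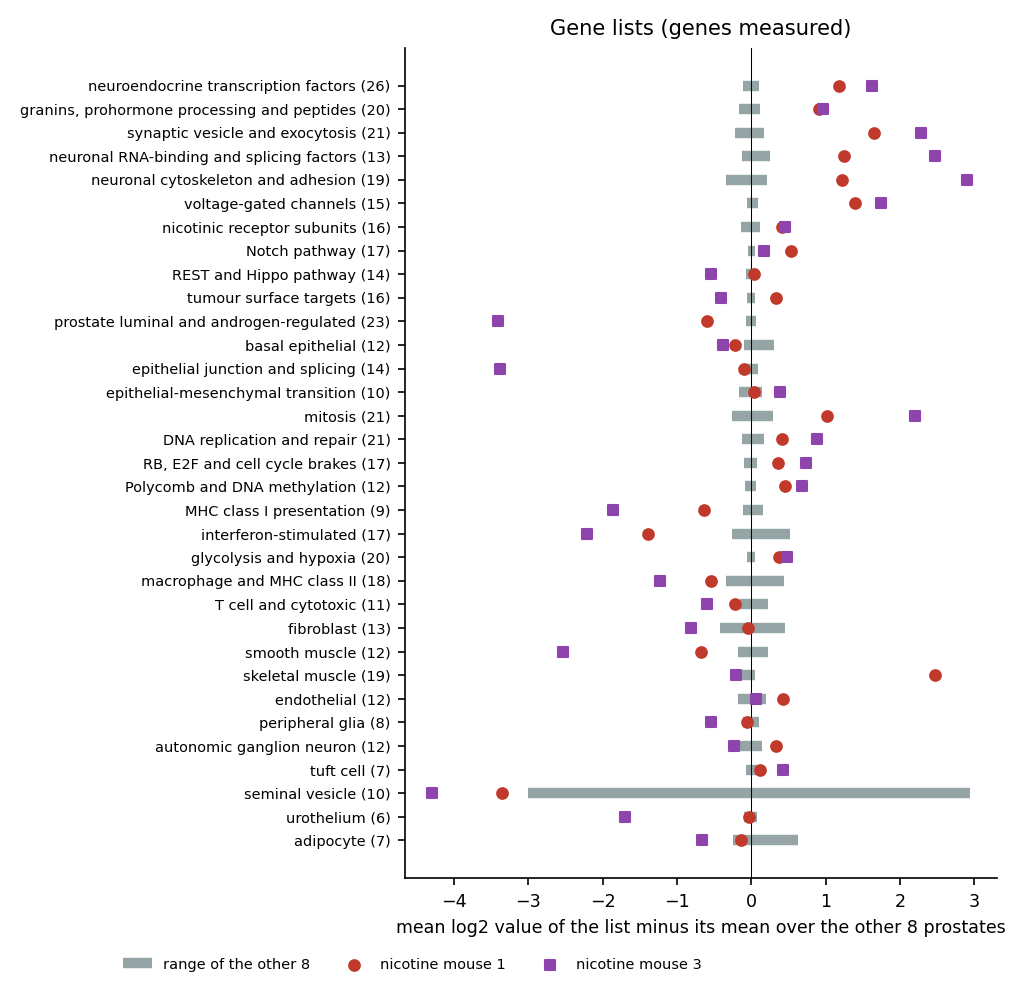
Mean log2 value of each gene list minus its mean over the other 8 prostates, for nicotine mouse 1 (circles) and nicotine mouse 3 (squares); the grey bar is the range of the other 8, and the number of genes measured is in brackets. Both prostates lie right of the bar for the synaptic vesicle, neuronal RNA-binding, neuronal cytoskeleton, mitosis and replication lists and left of it for the luminal, interferon and smooth muscle lists, and they part for the epithelial junction and skeletal muscle lists.

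The 2 prostates parted company over epithelial identity. Krt8 and Krt18, the keratin pair of luminal cells, read 13.14 and 7.98 (Krt8) against 12.44, 12.53 and 12.71, and 12.41 and 6.94 (Krt18) against 12.53, 12.59 and 12.66. Cdh1 (E-cadherin) read 11.64 and 6.79 against 11.73, 11.93 and 12.04. Nicotine mouse 1 thus lay near or above the level of the other 8, and nicotine mouse 3 was far below for each. Of 14 epithelial junction and splicing genes, nicotine mouse 3 had 13 at least 1 unit below the others, nicotine mouse 1 had 0, and 0 were called in both. Ocln (occludin) read 10.40 and 5.93 against 10.44, 10.52 and 10.86, and Grhl2, a factor that maintains epithelium, read 10.46 and 7.33 against 10.61, 10.76 and 10.97. Msmb, a major secreted protein of the prostate, read 12.99 and 6.21 against 12.94, 13.26 and 13.30, and Mmp7, a protease of glandular epithelium, 12.50 and 6.59 against 12.19, 12.56 and 12.62. For both of these nicotine mouse 1 lay inside the range of the others. Cdh2 (N-cadherin) was high in both, at 8.62 and 9.84 against 5.81, 5.93 and 6.29, the 1 of 10 genes of epithelial-mesenchymal transition called higher. The basal cell genes Krt5, at 7.47 and 6.56 against 7.02, 7.64 and 8.06, and Trp63, at 7.50 and 7.39 against 7.40, 7.49 and 7.62, overlapped the other 8 in nicotine mouse 1. Of 12 basal genes 0 were called, 9 lay below the mean of the other 8 in both prostates and 5 lay below all 8, beside 21.1% of all genes. The basal list means were 7.50 and 7.33 against 7.61 to 8.03.

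The neuroendocrine factors also differed between the pair. Foxa2, a foregut factor used as a marker of TRAMP neuroendocrine tumours, read 9.69 and 7.54 against 7.39, 7.55 and 7.81. Sox2, a stem cell factor, read 11.18 and 7.63 against 8.46, 8.58 and 8.87, above the others in nicotine mouse 1 and below them in nicotine mouse 3. Pcsk1, a prohormone convertase, read 11.11 and 6.20 against 6.07, 6.45 and 6.82. These 3 genes were high in nicotine mouse 1 only. Neurod1, a neuronal helix-loop-helix factor, read 5.13 and 7.84 against 4.99, 5.00 and 5.09, Mycn read 8.11 and 10.72 against 7.16, 7.38 and 7.59, and Dcx, which binds microtubules of migrating neurons, read 5.57 and 9.49 against 5.42, 5.52 and 5.78. Glra2, a glycine receptor subunit, read 4.71 and 9.75 against 4.57, 4.64 and 5.02, and Tmeff2, a membrane protein of brain and prostate, 6.91 and 11.43 against 6.62, 7.01 and 7.37. For these 5 genes nicotine mouse 3 was the high prostate. So it was for Negr1, Cntn1 and Lrrtm4, adhesion proteins of neurons and synapses, which read 11.49, 10.33 and 9.99 in nicotine mouse 3 and 7.11, 6.09 and 5.94 in nicotine mouse 1, the latter inside the ranges of the other 8. Among genes high in nicotine mouse 1 only were Pkd1l3, a polycystin-like channel protein, at 11.94 and 6.77 against 6.61, 6.73 and 6.93, and Kcnk16, a potassium channel of pancreatic islets, at 10.87 and 6.94 against 6.79, 7.03 and 7.18. Myc was low in nicotine mouse 1 only, at 9.30 and 10.30 against 10.24, 10.33 and 10.54. Over all genes, 93 were at least 1 unit above in nicotine mouse 1 with nicotine mouse 3 inside the range of the other 8, and 264 the reverse. In the lower direction these counts were 7 and 140. The 2 prostates lay at least 1 unit outside the range on opposite sides for 10 genes with nicotine mouse 1 high and for 1 gene with nicotine mouse 3 high.

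**Figure D4:**
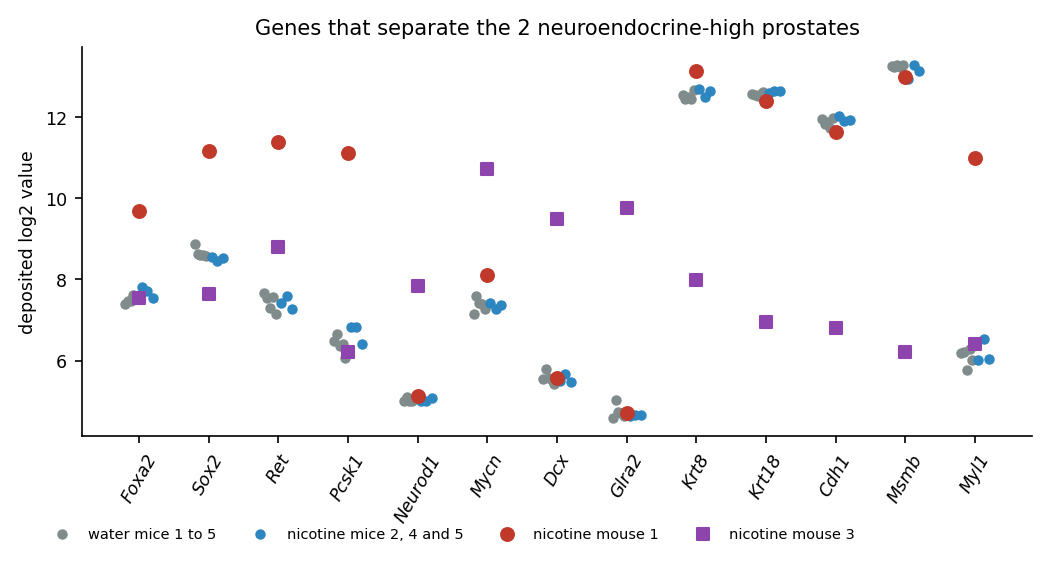
Deposited log2 values of 13 genes in which nicotine mouse 1 (circles) and nicotine mouse 3 (squares) differ, with the other 8 mice as small points. Foxa2, Sox2, Ret and Pcsk1 are highest in nicotine mouse 1, Neurod1, Mycn, Dcx and Glra2 in nicotine mouse 3, and the keratins, Cdh1 and Msmb are far below the others in nicotine mouse 3 only.

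Markers of other cell types moved with the group in part. All 19 skeletal muscle genes were at least 1 unit above the others in nicotine mouse 1, where the list mean was 9.84, against 7.16 in nicotine mouse 3 and 7.25 to 7.42 in the other 8. Myl1, a light chain of fast muscle, read 11.01 and 6.41 against 5.76, 6.11 and 6.53, and Ttn (titin) 9.41 and 6.29 against 6.12, 6.32 and 6.44. Myh1, a fast myosin, Mylk4, a myosin kinase of muscle, and Klhl41, a sarcomere protein, read 10.54, 9.75 and 10.82 in nicotine mouse 1, and 6.20, 5.16 and 6.79 in nicotine mouse 3, the latter inside the ranges of the other 8. Smooth muscle was lower in both, with list means of 10.02 and 8.15 against 10.51 to 10.92 and 3 of 12 genes called lower, among them Actg2 at 9.72 and 8.54 against 11.09, 11.34 and 11.47. Fibroblast means were 9.49 and 8.72 against 9.11 to 9.99, and macrophage and class II means 8.68 and 7.99 against 8.88 to 9.66. Endothelial means were 8.19 and 7.82 against 7.58 to 7.96, with 0 of 12 genes called, among them Kdr, a receptor for vascular growth factor, at 7.64 and 7.90 against 6.91, 7.07 and 7.20. Urothelial means were 8.68 and 7.01 against 8.61 to 8.79, with Upk1b (uroplakin) at 10.84 and 6.67 against 11.62, 11.86 and 11.98. T cell means were 6.87 and 6.49 against 6.94 to 7.32. Of the T cell list, the 7 adipocyte genes and the 1 red blood cell gene measured, 0 were called. Seminal vesicle means were 6.86 and 5.92 against 7.21 to 13.15, so both prostates were lowest of the 10. Against only the 4 other prostates with a seminal vesicle mean under 10 units, 427 genes were called higher and 329 lower; a smaller reference can only add calls. The part of the muscle, stromal, immune and seminal vesicle markers in the other gene groups was not tested.

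Nerve tissue markers were looked at because ganglia and nerves express many of the same genes. Th and Dbh, the catecholamine enzymes of sympathetic neurons, read 7.52 and 7.08 (Th) and 7.14 and 7.09 (Dbh), both within the ranges of the other 8, which were 6.92 to 7.71 and 6.64 to 7.40. Of 12 autonomic neuron genes, 1 was called higher: Ddc, the decarboxylase of serotonin and dopamine synthesis that neuroendocrine cells share, at 11.31 and 9.95 against 6.12, 6.44 and 7.02. Phox2a, a factor of autonomic neurons, lay above the highest of the others (6.83) by less than 1 unit in both, with 7.34 in nicotine mouse 3. Peripheral glia means were 7.88 and 7.39 against 7.83 to 8.04, with 0 of 8 genes called, and tuft cell means were 7.11 and 7.42 against 6.92 to 7.06, with 0 of 7 called. The tuft cell factor Pou2f3 read 7.13 and 7.15, at or near the lowest of the other 8 (7.13).

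Among the other 8 prostates, 1 water mouse stood closest to the pair on the genes called higher. Water mouse 2 was the highest of the 8 for 146 of the 409 genes (35.7%), beside 17.9% of all genes, and its median excess over the mean of the other 7 was 0.09 log2 units. Nicotine mouse 2 was the lowest of the 8 for 93 of the 281 genes called lower (33.1%), beside 12.1% of all genes, by a median of -0.10. The calls themselves use the highest or lowest of the 8, both shifts were small next to the gap of at least 1 unit, and the shares describe 2 single mice.

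**Figure D5:**
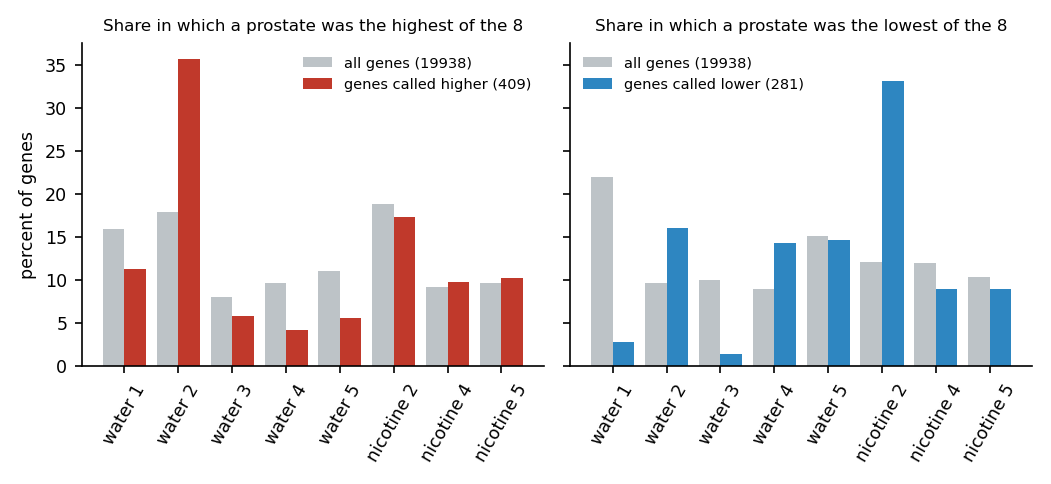
Percent of genes for which each of the other 8 prostates was the highest (left, red bars for the 409 genes called higher) or the lowest (right, blue bars for the 281 called lower), beside the same over all 19938 genes in grey. Water mouse 2 leads on the left with 35.7% and nicotine mouse 2 on the right with 33.1%.

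The nicotine contrast itself was tested with limma, since it is set by the labels. Over all 10 mice, 0 of 14953 genes (0.0%) passed at 0.05 after adjustment, where the minimum was 0.458. With array weights 1096 genes passed, 425 higher and 671 lower. The weights were small for the 2 prostates and largest for nicotine mouse 5 (4.67) and water mouse 3 (4.54). With the 2 prostates left out and no weights, 0 genes passed, with a minimum of 0.0582. In the limma fit of all 10 mice without weights, 1514 genes had an unadjusted p under 0.05. Of these, 640 lay higher and 874 lower with nicotine. That split followed the scaling, being 962 and 700 after quantile normalization. For Chga the fitted difference, nicotine minus water, was 1.74 ± 0.92 (SE), with a limma adjusted p of 0.458, and 2 of 5 nicotine mice lay above the water mice beyond their range. Chga had served to choose these 2 prostates, both of nicotine mice, so this difference restates that choice and is no separate result. Without the 2 prostates and with no filter, the fitted difference was 0.094 for Chga and 0.016 for Syp. It was -0.036 for Insm1, -0.029 for Scg3 and -0.067 for Syt1. The limma adjusted p of these markers lay between 0.820 and 0.974. The 2 prostates had been left out for their Chga and Syp values, so these differences depend on that choice as well.

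In the fit of those 8 mice, 3 nicotine and 5 water, limma passed 0 of 19938 genes at 0.05 after adjustment, with a minimum of 0.0649. At an unadjusted p under 0.05, 1038 genes (5.21%) were higher and 1440 (7.22%) lower with nicotine. These mice are also the reference of the neuroendocrine-high comparison, so the values are only set side by side, and the 2 mice had been left out for their expression values. Of 21 mitosis genes, 20 had an unadjusted p under 0.05 in the higher direction, with a median difference of 0.38, beside 1.52 in the neuroendocrine-high prostates. Some cell type lists were lower in the same fit at an unadjusted p under 0.05. These were 12 of 13 fibroblast genes (median difference -0.51), 9 of 18 macrophage and class II genes (-0.34) and 5 of 12 endothelial genes (-0.15), with 0 in the other direction. Without nicotine mouse 4 the macrophage and endothelial counts were 5 and 3. Other lists leaned higher: 7 of 7 adipocyte genes (median difference 0.25), 10 of 12 basal genes (0.093) and 9 of 12 smooth muscle genes (0.055) had positive differences. At an unadjusted p under 0.05 these lists held 1, 3 and 0 genes higher and 0 lower. Without nicotine mouse 4, 3 of the 7 adipocyte genes were positive. The part of these cell types in the mitosis values was not tested. Foxm1 differed by 0.50 ± 0.09 (SE, limma adjusted p = 0.0948), from a water mean of 7.97, and Plk1 by 0.58 ± 0.11 (limma adjusted p = 0.0983), from 8.94. Of 17 interferon-stimulated genes, 9 lay higher and 0 lower with nicotine at that level, with a median difference of 0.31, beside -1.86 in the neuroendocrine-high prostates. These rested largely on nicotine mouse 5, without which 3 of the 17 lay higher and the median difference was 0.14. The interferon list mean was 9.71 in nicotine mouse 5, and 9.17 and 9.19 in nicotine mice 2 and 4, inside the water range of 8.92 to 9.28. Ifit3 averaged 11.14 ± 0.71 (SD, n = 3) in nicotine mice 2, 4 and 5 and 10.44 ± 0.27 (SD, n = 5) in water mice, while both neuroendocrine-high prostates lay below all 8. None of these genes passed the adjusted threshold, and these comparisons were looked at after earlier results of these data were known.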

How the data were processed

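RNA of 1 prostate from each of 10 male TRAMP mice was hybridised to 1 single-colour Affymetrix whole-transcript array. The values as deposited by the authors, 35556 probe sets on each array, were read as log2 because they ran from 3.59 to 14.1. The method of background correction and normalization is not given in the labels or file header read here, and the number of arrays limits the precision.

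A gene was a symbol that the platform annotation, which can be old, pairs alone with a probe set: 21789 had 1 symbol, 1621 several and 12146 none. For 999 of the 19938 genes with several probe sets, that with the highest mean was used. RefSeq (GRCm38.p6) matched 21698 probe sets by Entrez identifier and gave the start regions.

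Prostates with Chga and Syp above 9 were described against the other 8, without a test, in Python 3.11.15. The members, the rules and the 34 gene lists (489 of 533 entries measured) were chosen with earlier results of these data known. Genes named were the markers, the widest gaps over all genes (up to 20 a direction), in 1 prostate only (up to 10) and in each list (up to 6), and lineage genes. The rankings over all genes and in 1 prostate only left out predicted and clone names, small RNAs, and olfactory and vomeronasal receptors. Of 142 named, 6 fell outside this rule and were chosen after their values were seen: Ogdhl, Pcdhb17, H1f1, Trim30a, Nkx2-1 and Nkx2-9. Cacna1e and Cacna2d2, named without values and not among the 142, also fell outside it.

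Nicotine was compared with water by limma 3.58.1 (R 4.3.3), lmFit and eBayes, two-sided, with Benjamini-Hochberg adjustment, without the 25% of genes whose mean was under 6.55, the filter on low mean values named in the text. That mean included the 2 neuroendocrine-high prostates. Scg3, for example, passed the filter although its mean over the other 8 was 5.90. The fit of 8 mice used no filter and was added, like leaving out each of them in turn, after the data were seen. Steps were tested on simulated data. Mice are separate animals by their labels. Alternatives were other gaps, thresholds, normalizations, probe set rules, reference prostates, array weights, a block for the mouse number and leaving out each mouse.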

Additional observations from a re-analysis of the deposited data

Results flagged for a closer look

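In groups of 5 mice, a value was noted when its gap to the nearest mouse, divided by the range of the group, was above 0.71. Chance gives about 1 such value in 20 groups, and 68 groups of list means and 284 of single genes were looked at, with 8 and 38 noted. The 2 neuroendocrine-high prostates were chosen as extreme, so most of these describe which of them stood alone in the nicotine group.

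Nicotine mouse 1 stood alone at the high end for the skeletal muscle list mean (ratio 0.904), with Ttn (0.952), Myl1 (0.896), Myh1 (0.967), Mylk4 (0.974), Klhl41 (0.945) and Chrnd (0.860). It also did for Foxa2 (0.874), Sox2 (0.739), Pcsk1 (0.874), Kcnk16 (0.938) and Pkd1l3 (0.954), and at the low end for Myc (0.808).

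Nicotine mouse 3 stood alone at the low end for the list means of epithelial junction and splicing genes (0.948), urothelium (0.924), peripheral glia (0.838), REST and Hippo genes (0.836) and luminal genes (0.809). Single genes at its low end were Ocln (0.962), Mmp7 (0.960), Krt18 (0.957), Msmb (0.950), Cdh1 (0.924), Grhl2 (0.914), Krt8 (0.877), Upk1b (0.813), Yap1 (0.761), Notch2 (0.734) and Pate9 (0.723). At the high end it stood alone for the tuft cell list mean (0.736), Glra2 (0.983), Lrrtm4 (0.976), Negr1 (0.968), Dcx (0.956), Neurod1 (0.954), Tmeff2 (0.930), Cntn1 (0.929) and Mycn (0.757).

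Among water mice, water mouse 2 stood alone at the high end for Fgf14 (0.800), Elavl4 (0.722) and Cacna1b (0.718) and at the low end for Car13 (0.731). Water mouse 1 did so at the high end for Sox2 (0.839) and the endothelial list mean (0.788), and water mouse 5 for Ocln (0.803) and Top2a (0.721).

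Probe sets without a gene name entered no comparison above. Of these, 48 lay at least 1 log2 unit above the other 8 in both neuroendocrine-high prostates and 57 at least 1 unit below.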

How the results depend on the processing

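Both counts stayed within 1.5 times 409 and 281 with the filter on low means, quantile normalization, centring on array medians, the mean over probe sets and each of 3 smaller sets of reference prostates, which can only add calls. The filter keeps genes that pass only through their high values in the 2 prostates, so its count of genes higher is not a separate check. With any gap, 3489 genes lay above and 4214 below; with a gap of 2 units, 88 and 9; with a difference of means of at least 1 unit, 1251 and 1421. Leaving out 1 mouse gave 410 to 1482 genes higher and 283 to 1716 lower, the top values without nicotine mouse 1; without nicotine mouse 3 there were 685 and 309. A threshold of 10 left 1 neuroendocrine-high prostate, nicotine mouse 3, while a threshold of 8 left both. For the nicotine contrast 0 genes passed without each mouse in turn, without both prostates, without a filter and under both normalizations. Array weights passed 1096 genes. They were 0.113 and 0.0321 for these prostates, and largest for nicotine mouse 5 (4.67) and water mouse 3 (4.54). With the mouse number as a replicate block 0 passed and 1005 had an unadjusted p under 0.05, beside 1514 without it. The labels do not say that mice of the same number belong together, so the numbers were not taken as pairs.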
